A study of Homo sapiens with 12 samples.

Results

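The zinc finger genes of chromosome 19 were taken as the protein-coding RefSeq genes of that chromosome whose symbol is ZNF followed by digits, with or without a final letter. The rule found 246 genes, 17.0% of the 1451 protein-coding genes of the chromosome and part of 19974 genes measured in all. They were followed through 4 ChIP-seq summit lists from Huh7, a human liver cancer cell line labelled wild type, for H3K27ac and H3K4me1 at 0 and 15 µM choline. All 4 cultures were kept for 48 h in a DMEM made without choline chloride, with B-27 in place of serum, and differed by added choline chloride. The series lists 12 samples, and the input, RNA-seq and CUT&Tag samples were not analysed here. Each mark was profiled in a single library per dose, so no value below has a replicate check and no p-value was computed. Replicate cultures would be needed to tell an effect of choline from a difference between libraries. A summit is the position of the highest signal in a called peak. A summit list from a whole culture cannot tell fewer cells carrying a mark from less of the mark in each cell.

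Most zinc finger genes of this chromosome arose by tandem duplication and lie in long runs of relatives. Many encode a KRAB domain at the start of the protein and a row of C2H2 zinc fingers that reads DNA. KRAB binds TRIM28, which brings SETDB1 and HP1 proteins to lay down repressive H3K9 methylation on transposable elements, and the finger-coding ends of these genes often carry that methylation themselves. Active promoters and enhancers carry H3K27ac, whereas H3K4me1 is found at enhancers and on the flanks of active promoters.

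The H3K27ac lists held 37946 summits at 0 µM and 29305 at 15 µM, and those of H3K4me1 held 343156 and 349202. The ratio of list lengths, 15 over 0 µM, was 0.772 for H3K27ac and 1.02 for H3K4me1, and on chromosome 19 it was 0.686 and 0.973. Scores are the authors' own and were ranked within a list only. A score minimum, the same at both doses, was also applied in a check of the processing. Scores given for both doses come from separate libraries, and their difference was not tested. Read depth is unknown. Of 10 hepatocyte markers, 7 had an H3K27ac summit at a gene end at 0 µM and 9 at 15 µM. By the definitions of lost and gained ends given below, 0 were lost and 0 gained. The windows of these markers held 147 and 187 summits. Of 5 blood markers, 1 had an end at 0 µM and 2 at 15 µM, with 1 gained, and their windows held 11 and 12. Of 5 stromal and endothelial markers, 1 had an end at each dose, and their windows held 12 and 15.

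The promoters below show the sequence beside which the summits described next were listed. They are RefSeq promoters (GRCh38.p14), each from 250 bases before the gene start to 50 after it, on the gene's strand. ZNF460 (chr19:57279732-57280031, plus strand) and ZNF576 (chr19:43596142-43596441, plus) had the highest H3K27ac scores of the family at 0 µM and kept a summit at 15 µM. ZNF562 (chr19:9675051-9675350, minus) and ZNF274 (chr19:58182811-58183110, plus) had one at 0 µM only, and ZNF555 (chr19:2841225-2841524, plus) at 15 µM only. Capitals mark the GC box letters GGGCGGG or the letters CCNCNCCC, a pattern of the kind that KLF and SP factors bind, on either strand. The 2 patterns can overlap.
ZNF460: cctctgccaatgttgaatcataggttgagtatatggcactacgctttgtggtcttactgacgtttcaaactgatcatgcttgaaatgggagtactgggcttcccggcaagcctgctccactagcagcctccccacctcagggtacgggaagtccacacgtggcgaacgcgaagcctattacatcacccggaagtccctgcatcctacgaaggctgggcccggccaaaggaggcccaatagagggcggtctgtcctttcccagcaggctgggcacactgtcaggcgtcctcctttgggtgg
ZNF576: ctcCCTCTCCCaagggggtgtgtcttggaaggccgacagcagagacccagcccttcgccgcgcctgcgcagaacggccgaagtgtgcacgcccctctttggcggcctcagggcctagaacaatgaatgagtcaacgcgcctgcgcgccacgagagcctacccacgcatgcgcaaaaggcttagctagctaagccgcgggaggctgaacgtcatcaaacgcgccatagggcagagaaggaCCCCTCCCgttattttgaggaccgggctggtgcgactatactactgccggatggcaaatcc
ZNF562: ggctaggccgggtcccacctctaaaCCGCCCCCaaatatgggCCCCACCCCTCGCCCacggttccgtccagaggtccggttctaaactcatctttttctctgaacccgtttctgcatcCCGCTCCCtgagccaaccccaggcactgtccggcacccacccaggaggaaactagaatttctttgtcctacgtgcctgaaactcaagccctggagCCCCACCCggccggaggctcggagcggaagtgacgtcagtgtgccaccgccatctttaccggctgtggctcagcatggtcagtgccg
ZNF274: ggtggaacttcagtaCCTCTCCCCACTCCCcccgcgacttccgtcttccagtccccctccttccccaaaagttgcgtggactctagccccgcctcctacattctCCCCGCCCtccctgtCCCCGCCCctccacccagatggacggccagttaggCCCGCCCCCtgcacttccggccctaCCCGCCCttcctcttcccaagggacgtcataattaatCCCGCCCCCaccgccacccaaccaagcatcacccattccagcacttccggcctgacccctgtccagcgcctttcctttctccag
ZNF555: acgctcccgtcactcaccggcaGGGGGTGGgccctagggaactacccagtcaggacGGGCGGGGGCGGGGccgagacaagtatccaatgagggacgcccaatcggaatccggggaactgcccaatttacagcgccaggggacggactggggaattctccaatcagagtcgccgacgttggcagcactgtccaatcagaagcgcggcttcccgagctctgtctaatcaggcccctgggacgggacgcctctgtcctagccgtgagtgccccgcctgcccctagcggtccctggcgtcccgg
The ZNF460 promoter held neither pattern and ZNF576 held 2 matches to CCNCNCCC. ZNF562 held 5 such matches, ZNF274 held 6 with 5 GC boxes, and ZNF555 held 4 with 2 GC boxes. These matches are letters in the sequence and not measured binding.

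The first question was where along these genes the marks lay. Both marks sat at the start of the gene and were sparse over the rest of it. Strand was given for 216 of the 246 genes. At 0 µM, 37 of the 216 had an H3K27ac summit within 1 kb of the start and 1 had one within 1 kb of the far end. At 15 µM, 18 had one at the start and 0 of 216 at the far end, which allows a share of up to 1.69% (exact 95% interval). The H3K27ac shares at 0 µM were 17.1% of starts and 0.463% of far ends, against 28.3% and 3.78% over all genes. They were 23.8% and 4.23% in the other genes of the chromosome, and 39.3% and 1.40% in ZNF genes of other chromosomes. More H3K27ac at starts than at far ends was thus seen in each set. In the zinc finger genes of chromosome 19, H3K4me1 was listed within 1 kb of the start at 96 genes at 0 µM and 83 at 15 µM, and of the far end at 19 and 16.

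At the starts, H3K4me1 was as frequent as in the other genes of the chromosome at 0 µM. It was found at 44.4% of the zinc finger starts (exact 95% interval 37.7 to 51.3) and at 44.1% of 969 others (40.9 to 47.3). At 15 µM the shares were 38.4% (31.9 to 45.3) and 45.1% (41.9 to 48.3). At the far ends it was rarer, with 8.80% (5.38 to 13.4) against 26.6% (23.9 to 29.5) at 0 µM and 7.41% (4.29 to 11.8) against 29.2% (26.4 to 32.2) at 15 µM, in intervals that did not overlap. For the ZNF genes of other chromosomes the far-end share was 12.6% at both doses, with an interval of 8.48 to 17.8 that overlaps that of the chromosome 19 genes. All intervals cover counting error only and treat neighbouring genes as independent, and no difference between gene sets was tested.

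Between 5 kb past the start and 1 kb before the far end, the bodies of the zinc finger genes held 182 H3K4me1 summits in 5.12 Mb at 0 µM, or 35.6 per Mb, and 180 at 15 µM, or 35.2 per Mb. The other genes of chromosome 19 held 135 and 129 per Mb, and the ZNF genes of other chromosomes 125 and 120. The density was low at both doses, and the ZNF genes elsewhere stood close to the other genes of chromosome 19. For H3K27ac the bodies held 4.10 per Mb at 0 µM and 2.15 at 15 µM, from 21 and 11 summits, against 14.2 and 11.6 in the other genes of the chromosome.

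**Figure D1:**
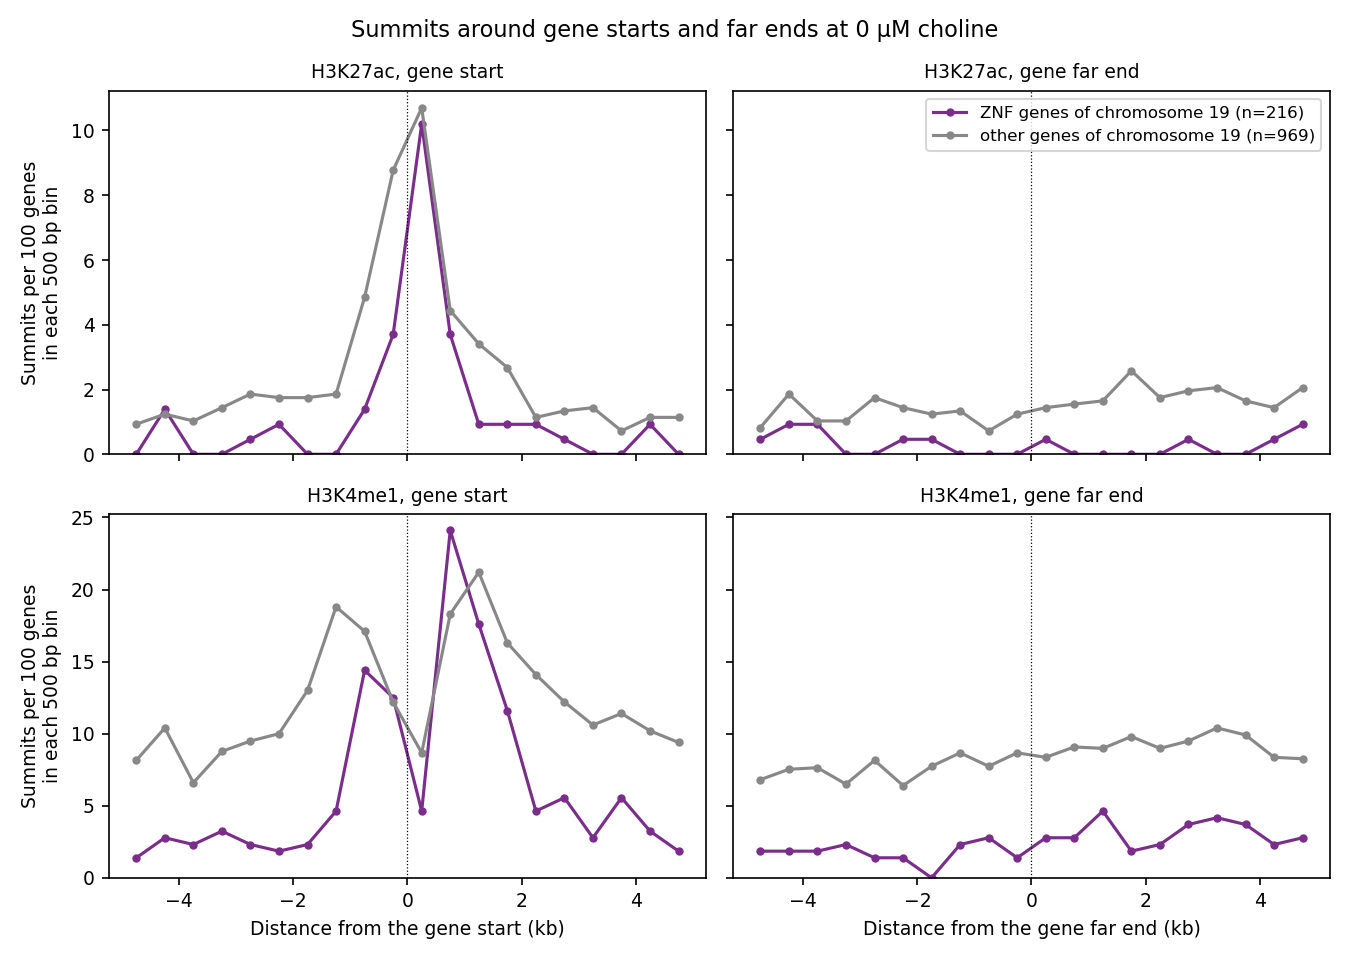
Summits per 100 genes in bins of 500 bp (y axis) by distance in kb from the gene start or far end (x axis) at 0 µM choline, for 216 zinc finger genes and 969 other genes of chromosome 19. In the zinc finger genes H3K27ac peaks just past the start, H3K4me1 forms a shoulder on each side with a dip between, and both are low around the far end.

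The 2 marks occupied different positions around the start. At 0 µM the 500 bp past the start held 22 H3K27ac summits, or 10.2 per 100 genes, and 10 H3K4me1 summits, or 4.63 per 100 genes. The next 500 bp held 8 and 52. At 15 µM the H3K4me1 counts in these bins were 6 and 40. In each gene with a start summit at 0 µM, the best H3K27ac summit lay at a median of 151 bp past the start, and 19 of 37 lay within the 250 bp past it. For H3K4me1, 2 of 95 did. The other genes of the chromosome had the same order of bins at 0 µM for H3K4me1, with 8.67 and then 18.3 summits per 100 genes.

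The next comparison was of H3K27ac at gene ends between the doses. An end was counted when a summit lay within 1 kb of either annotated end of the gene. At 0 µM, 43 of the 246 genes had one (17.5%, 12.9 to 22.8), and at 15 µM 20 did (8.13%, 5.04 to 12.3). Over all protein-coding genes the shares were 28.3% (27.7 to 28.9) and 16.2% (15.7 to 16.7). The other genes of chromosome 19 had 25.1% (22.6 to 27.6) and 13.7% (11.8 to 15.8), and the ZNF genes of other chromosomes 36.9% (31.0 to 43.0) and 15.2% (11.1 to 20.1). At 0 µM the chromosome 19 zinc finger genes thus had the lowest share of these sets, though their interval meets that of their neighbours on the chromosome.

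**Figure D2:**
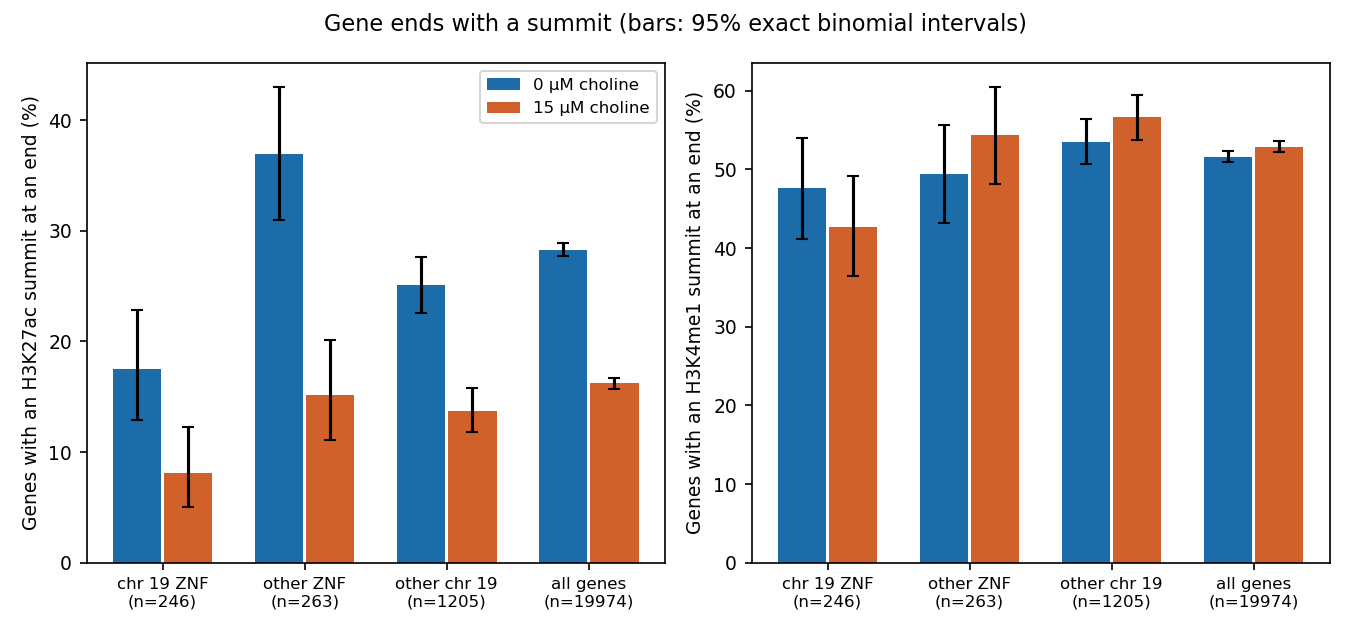
Percentage of genes with a summit within 1 kb of either end (y axis) for 4 gene sets (x axis), with H3K27ac on the left and H3K4me1 on the right, at 0 and 15 µM choline. Error bars are exact 95% binomial intervals, and the H3K27ac bars of the chromosome 19 ZNF genes are the lowest at both doses, at 17.5% and 8.13%.

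Of the 43 ends at 0 µM, 25 were lost, meaning that the 15 µM list had no summit within 2 kb of either end of the gene (58.1%, 42.1 to 73.0). Over all genes 43.9% were lost, among the other genes of chromosome 19 51.0% (45.2 to 56.8) and among the ZNF genes elsewhere 56.7% (46.3 to 66.7). The share was therefore near that of the rest of the chromosome. Of the 20 ends at 15 µM, 2 were gained by the same definition (10.0%, 1.23 to 31.7), against 10.5% over all genes. With both lists cut to equal length, 23 ends were lost and 3 gained, and 57.5% were lost against 40.7% over all genes. A total of 17 genes had an end at both doses, 2 genes (ZNF846 and ZNF787) had one within 1 kb at one dose and within 2 kb at the other, and 200 had none. Lost ends were found in each of the 10 runs of neighbouring genes described below.

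The ends kept at both doses were led by ZNF460, which scored 52.0 at 0 µM and 10.3 at 15 µM. Its best summit lay 101 bp past the start at 0 µM and 150 bp past it at 15 µM. ZNF576 had scores of 51.5 and 7.22, and its summit lay within 1 kb of an end of IRGQ, an immunity-related GTPase gene, so the summit cannot be assigned to 1 of them. ZNF524 had 47.0 and 15.0 and shared its summit with FIZ1 in the same way. ZNF253 had 41.9 and 12.9, ZNF714 had 27.6 and 13.3, and ZNF428 had 26.7 and 11.9. ZNF865 had 22.1 and 10.7, and ZNF780A had 21.8 and 9.72. These 8 had the highest 0 µM scores among genes with an end at both doses, and at 15 µM they scored from 7.22 to 15.0, where the median of the list was 10.3. ZNF91, whose protein represses SVA retrotransposons, also had an end at both doses, with scores of 12.7 and 7.69.

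The lost ends with the highest scores were weaker than those leaders. The ZNF562 end scored 21.2 at 0 µM, and its 50 kb window held 1 summit at each dose. ZNF837 scored 18.9 and its window held 4 and 1 summits. ZNF274, a KRAB zinc finger factor that brings SETDB1 to the far ends of other zinc finger genes, scored 18.5, with 1 and 0 in its window. ZNF766 also scored 18.5, with 2 and 0 in its window, and ZNF223 scored 16.0, with 1 and 0. ZNF784 scored 15.8 with 13 and 4, ZNF260 scored 15.6 with 2 and 1, and ZNF443 scored 15.6 with 3 and 0. The 25 lost ends had a median score of 13.2 and a range of 5.60 to 21.2, and the 17 ends kept at both doses a median of 17.9 and a range of 6.02 to 52.0. The 8 leaders above, which were picked by score, all scored higher than every lost end. The same split of scores over all genes is not given here.

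The 2 gained ends were those of ZNF254 and ZNF555. ZNF254 (chromosome 19, 24033449 to 24129968, hg38) had 0 H3K27ac summits in its window at 0 µM and 2 at 15 µM, both at an end, the better one with a score of 15.1 and 134 bp past the start. ZNF555 (2841475 to 2860471) had a summit at -294 bp, before its start, at 15 µM, with a score of 8.36, and its window held 1 summit at each dose. Neither gene had an H3K4me1 summit within 1 kb of an end at either dose.

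Windows of 50 kb around both ends of each gene were counted next, since they take in nearby enhancers. The median zinc finger gene had 0 H3K27ac summits at both doses, against 2 at 0 µM and 1 at 15 µM over all genes. The medians were 2 and 0 in the other genes of chromosome 19, and 1 and 0 in the ZNF genes elsewhere. The window was empty in 132 of the 246 genes at 0 µM (53.7%) and in 172 at 15 µM (69.9%), and in 131 at both doses. Empty windows made up 35.0% and 48.8% over all genes. They made up 32.0% and 52.4% in the other genes of chromosome 19, and 34.2% and 57.4% in the ZNF genes elsewhere. The fullest windows of the 246 genes held 13 summits at 0 µM and 7 at 15 µM. After the 0 µM count was scaled by the ratio of list lengths, 75 windows held fewer summits at 15 µM, 40 held more and 131 were equal at 0. Without the scaling, 79 windows held fewer, 7 held more and 160 were equal, so most of the 40 held more only relative to the shorter list. The median scaled difference was 0.00, as it was over all genes.

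A window was called when the scaled counts differed by 2-fold and the larger count was at least 4, which 28 of the 246 genes reached. Of these 28, 15 were lower at 15 µM (53.6%), against 21.1% of all genes that reached the count, and 2 were higher (7.14%), against 5.95%. Windows of neighbours overlap, so these counts are not independent, and the shares were not matched for window counts. Among 67 genes taken at 1 per 200 kb, whether or not they reached the count, 3 windows were lower and 0 higher. Among the 15 lower windows, 5 were those of ZNF524, ZNF865, ZNF784, ZNF581 and ZNF580, which lie side by side. Another 5 were those of ZNF776, ZNF497, ZNF837, ZNF584 and ZNF324B, all in run 10, described below. In the ZNF581 window, H3K27ac summits numbered 13 without choline and 4 with it, and that of ZNF865 had the same numbers. ZNF541 had 5 and 0, ZNF57 had 5 and 0, and ZNF792 had 5 and 1. The ZNF575 window, with 4 and 1, was also among the lower ones. That of ZNF526, with 12 and 5 summits and a scaled difference of -4.27, did not pass the 2-fold limit. The 2 higher windows were those of ZNF69 and ZNF700, which overlap and each held 2 summits at 0 µM and 4 at 15 µM. ZNF296 had 3 and 4, ZNF846 had 2 and 3 and ZNF814 had 4 and 4, and none of these passed the 2-fold limit. ZNF350, which encodes a partner of BRCA1, had 2 and 1.

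**Figure D3:**
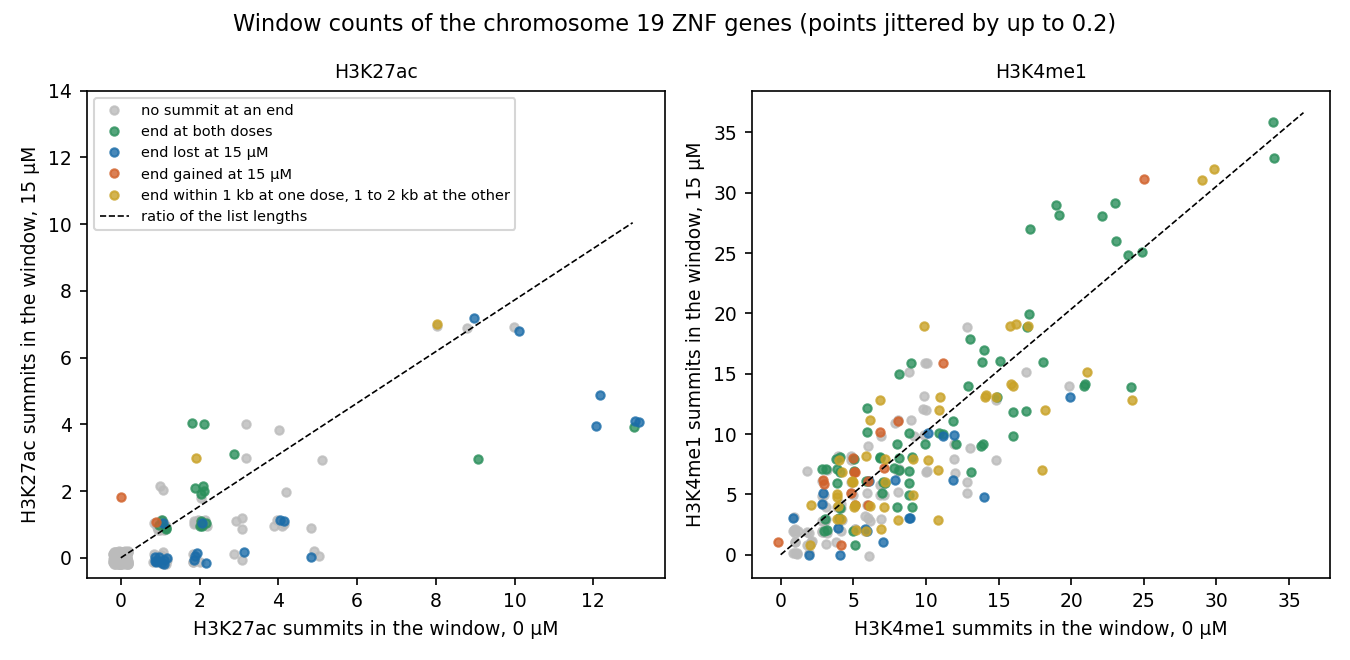
Number of summits in the 50 kb windows of each of the 246 zinc finger genes at 0 µM (x axis) and 15 µM (y axis), coloured by the state of the gene ends, with the ratio of the list lengths as a dashed line. In the H3K27ac panel most genes lie at 0 and the 5 neighbours around ZNF581, with ZNF526, form the group at 9 to 13 summits on the x axis and 3 to 5 on the y axis, below the line, and in the H3K4me1 panel the genes scatter on both sides of the line.

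Members were then grouped into runs of neighbours, in which each gap to the previous member was at most 500 kb. There were 10 runs of at least 5 members, holding 232 genes, and 14 genes lay outside them. Numbered along the chromosome, run 1 (ZNF554 to ZNF77, 2819868 to 2944971, hg38) held 5 genes, run 2 (ZNF414 to ZNF846, 8509678 to 9786160) 13, and run 3 (ZNF653 to ZNF791, 11483429 to 12633834) 25. Run 4 (ZNF101 to ZNF254, 19668153 to 24129968) held 37 and run 5 (ZNF302 to ZNF792, 34675979 to 34964229) 5. Run 6 (ZNF565 to ZNF573, 36182060 to 37779586) held 26, run 7 (ZNF575 to ZNF180, 43530835 to 44500522) 23 and run 8 (ZNF175 to ZNF331, 51571283 to 53580269) 39. Run 9 (ZNF628 to ZNF835, 55476617 to 56671757) held 16 and run 10 (ZNF264 to ZNF446, 57191500 to 58489533) 43. Distinct summits were counted over each run with 50 kb on each side, so that none was counted more than once within a run.

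The runs were poor in both marks, and unequally so. Together their 15.4 Mb contained 113 H3K27ac summits without choline and 55 with 15 µM, or 7.35 and 3.58 per Mb. The rest of chromosome 19, whose length includes the centromere, held 21.5 and 15.3 per Mb. For H3K4me1 the runs held 55.8 per Mb at 0 µM and 51.1 at 15 µM, against 138 and 136 in the rest. Over all chromosomes there were 12.5 and 9.68 H3K27ac summits per Mb, and 113 and 115 of H3K4me1. At 0 µM, runs 1, 5 (15.5 per Mb) and 9 lay above the H3K27ac density of all chromosomes. Run 1 alone lay above that of H3K4me1. The poorest at 0 µM were run 6, with 2.95 H3K27ac summits per Mb and 31.2 of H3K4me1, and run 4, with 3.51 and 30.0. The richest in both marks was run 1, with 26.7 and 169. Run 9 followed for H3K27ac, with 18.5, and run 7 for H3K4me1, with 96.3. Run 4 spanned 4.56 Mb with 6 other protein-coding genes in it and run 6 spanned 1.70 Mb with 6, whereas run 9 spanned 1.30 Mb with 29.

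**Figure D4:**
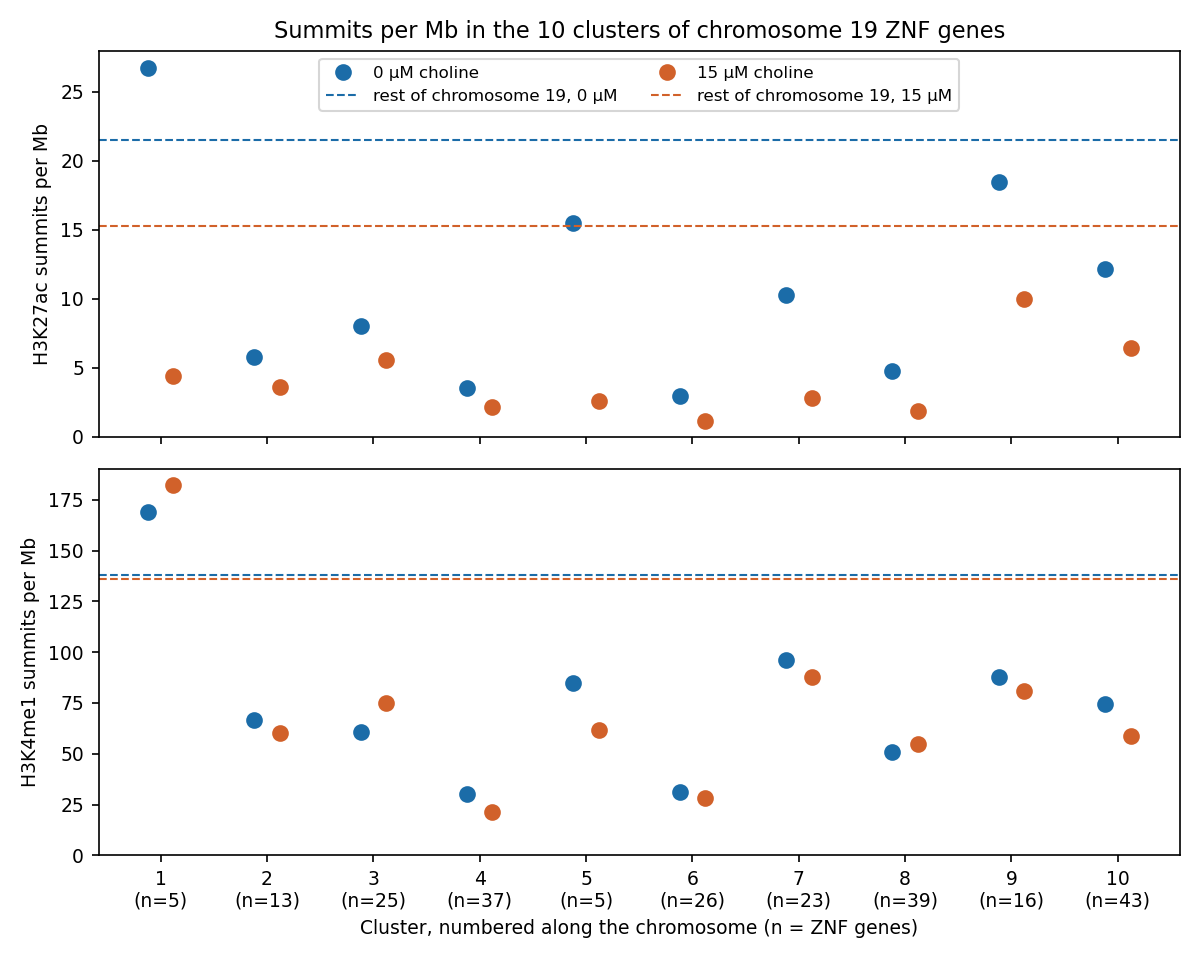
Summits per Mb (y axis) of H3K27ac (top) and H3K4me1 (bottom) in the 10 runs of zinc finger genes (x axis, with the number of genes) at 0 and 15 µM choline, with dashed lines for the rest of chromosome 19. Apart from run 1, all runs lie below the rest of the chromosome at the same dose for both marks, and the H3K27ac point at 15 µM lies below that at 0 µM in 10 of 10 runs.

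Between the doses, the ratio of H3K27ac summits in the runs, 15 over 0 µM, was 0.487 (0.346 to 0.678, exact binomial 95% interval). In the rest of the chromosome it was 0.710 (0.642 to 0.786), and the intervals overlap. All 10 runs had a ratio below 0.710, from 0.167 in runs 1 and 5 to 0.700 in run 3. Each run held few summits, and the interval of each of the 10 included 0.710. When runs were joined across gaps of up to 1 Mb, which takes in the stretches between them, the ratio was 0.693 inside and 0.684 outside. With the lists cut to equal length it was 0.579 inside and 0.880 outside. For H3K4me1 the ratio was 0.916 (0.830 to 1.01) in the runs and 0.982 (0.947 to 1.02) outside, and with a score minimum of 3 the order turned, with 0.869 in the runs and 0.837 outside. In the full lists it was lowest in run 4, at 0.715 (0.546 to 0.934, from 137 and 98 summits), where alone of the 10 the interval did not include 0.982, and highest in run 3, at 1.24 (0.904 to 1.70, from 76 and 94).

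H3K4me1 at gene ends was compared in the same way. At 0 µM 117 of the 246 genes had an end with a summit (47.6%, 41.2 to 54.0) and at 15 µM 105 did (42.7%, 36.4 to 49.1). Over all genes the shares were 51.6% and 52.9%. Of the 117, 19 were lost (16.2%, 10.1 to 24.2), against 8.92% over all genes, 8.84% (6.76 to 11.3) among the other genes of the chromosome and 15.4% (9.66 to 22.8) among the ZNF genes elsewhere. Of the 105, 16 were gained (15.2%, 8.97 to 23.6), against 10.9% over all genes. A further 70 genes had ends at both doses, 47 had a summit within 1 kb at one dose and between 1 and 2 kb at the other, and 94 had none. The interval of the lost share lay above the 8.92% of all genes, while that of the gained share included the 10.9%. These intervals treat neighbouring genes as independent. The zinc finger ends had a median best score of 3.48 at 0 µM, against 4.39 over all genes, and sparser windows, as given below. Whether the share lost follows from these differences was not tested.

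The runs did not share 1 pattern for this mark. In run 10, 28 of 43 genes had an H3K4me1 end at 0 µM and 18 at 15 µM, with 7 lost and 0 gained. In run 8, 18 of 39 had one at 0 µM and 21 at 15 µM, with 3 lost and 4 gained. The difference between these runs was not tested, and they were set side by side after their values were seen. The 7 lost ends of run 10 were those of ZNF548, ZNF530, ZNF134, ZNF211, ZNF776, ZNF586 and ZNF274. The ZNF548 end had 3 summits at 0 µM, and 14 summits in its window against 5 at 15 µM. ZNF274 had 1 H3K4me1 summit at its end at 0 µM, at -270 bp, before the start, with a score of 4.39, while its window held 6 at each dose, so it had both marks at the start at 0 µM and neither at 15 µM. The 7 lost ends scored 1.88 to 5.24 in a list whose median was 3.48.

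The H3K4me1 windows of these genes held a median of 7 summits at 0 µM and 6.50 at 15 µM, against 20 and 21 over all genes and 18 and 19 in the other genes of the chromosome. The median scaled difference was -1.02 summits, against -0.02 over all genes and -0.19 in the rest of the chromosome, with 151 windows lower and 95 higher after scaling, and 125 lower, 95 higher and 26 equal without it. A window was called at a 1.5-fold scaled difference with at least 10 summits at one dose, which 95 genes reached. Of these, 20 were lower at 15 µM (21.1%), against 4.95% of all genes, and 11 were higher (11.6%), against 7.95%. A 1.5-fold difference takes fewer summits where counts are low, and the shares were not matched for window counts. Among the 67 genes taken at 1 per 200 kb, whether or not they reached 10 summits, 9 were lower and 2 higher. The excess of lower windows turned in windows of 20 kb, with 6 lower and 8 higher, and with a score minimum of 3, with 3 lower and 5 higher.

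The lower windows included 7 in run 10 and the higher ones 6 in run 8. ZNF787, in run 9, held 24 H3K4me1 summits at 0 µM and 13 at 15 µM. ZNF431 held 18 and 7 and its neighbour ZNF714 24 and 14, both in run 4. ZNF552 held 21 and 14 and ZNF557 15 and 8. In the other direction, ZNF841 held 10 and 19, ZNF83 held 6 and 12, ZNF44 held 7 and 13 and ZNF627 held 9 and 15. ZNF580 held 17 and 27 H3K4me1 summits, while its H3K27ac window went from 12 at 0 µM to 4 at 15 µM. ZNF580 and its neighbours ZNF581, ZNF784, ZNF865 and ZNF524 all had fewer H3K27ac and more H3K4me1 summits at 15 µM, in windows that overlap. The H3K4me1 counts were 19 and 29 for ZNF581, 19 and 28 for ZNF784, 22 and 28 for ZNF865 and 25 and 31 for ZNF524. Of these windows, only that of ZNF580 passed the 1.5-fold limit for H3K4me1. Run 9 as a whole held 114 H3K4me1 summits at 0 µM and 105 at 15 µM.

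The marks were then set together at each dose. Each mark was counted at either end, so a gene with both may hold them at opposite ends, as ZNF787 did at 0 µM. At 0 µM, 29 genes had both marks at their ends, 14 H3K27ac alone, 88 H3K4me1 alone and 115 neither. At 15 µM the counts were 9, 11, 96 and 130. Of the H3K27ac ends, 67.4% also had H3K4me1 at 0 µM and 45.0% at 15 µM, the latter from 20 genes, against 63.9% and 63.1% over all genes. The largest class at both doses was that with neither mark, with 46.7% and 52.8% of the zinc finger genes against 38.1% and 41.2% of all genes. In all, 86 of the 246 genes had no end summit of either mark at either dose.

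What the promoters share was read from the RefSeq sequences of the 216 genes that matched. For each gene the listed promoter nearest to the annotated start was taken. For some genes it lay away from that start, by 70320 bp for ZNF420 and 8646 bp for ZNF581. The median promoter held 20 CpG dinucleotides in its 300 bases and 60.0% G and C, against 22 and 62.7% for 15812 protein-coding genes. The middle range was narrower, from 14 to 25.2 CpGs between the quartiles, against 8 to 32 for all genes. The letters GGGCGGG were present on either strand in 52.8% of the zinc finger promoters and 44.1% of all promoters, and CCNCNCCC in 58.8% and 66.6%. CCACACCC, which is a case of CCNCNCCC, was present in 1 of the 216 and in 3.45% of all promoters.

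By mark state, the promoters with H3K27ac at the start at 0 µM had a median of 23 CpGs (37 genes), those with H3K4me1 and no H3K27ac 20 (73 genes) and those with neither 19 (106 genes), in ranges that largely overlap. The 22 matched promoters whose H3K27ac end was lost had a median of 24 CpGs, and 15 of them held GGGCGGG (68.2%). The 15 kept at both doses had a median of 17, and 4 held it (26.7%). Over all genes the same split was narrower, with medians of 27 for 2065 lost and 25 for 2295 kept ends, and 52.9% and 48.4% with GGGCGGG. The lost group includes ZNF581, whose promoter sequence lay 8646 bp from the annotated start beside which its summit was listed. These are descriptions of small groups, without a test.

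Copies of near-identical sequence can take reads from each other. Among the 216 promoters, no pair from separate places shared as many as 50% of their 20-base words, and the highest share was 24.6%, between ZNF587B and ZNF814. In 5 pairs, among them ZNF490 and ZNF791, the promoters of head-to-head neighbours overlap on opposite strands. The treatment of reads that map to several places is not given in the sources used here. Similarity within the gene bodies was not tested.

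The proteins that work with KRAB zinc fingers were compared last, from a list of 19. Of these, 12 had an H3K27ac end at 0 µM and 9 at 15 µM. Lost ends were those of HDAC2, a histone deacetylase, MORC2, a chromatin-compacting ATPase, DNMT1, the maintenance DNA methyltransferase, and TRIM33, a relative of TRIM28. These are 4 of 12, against 43.9% over all genes. CBX1, an HP1 protein, had the only gained H3K27ac end of the list, 1 of 9, against 10.5% over all genes. TRIM28, which lies on chromosome 19 (58544064 to 58550715, hg38), had an H3K27ac end at both doses, with scores of 15.5 and 13.9, and 3 and 1 summits in its window. SETDB1 had an end at both doses, with 13 and 11 window summits. UHRF1, which recruits DNMT1, had the only lost H3K4me1 end of the list, 1 of 11, against 8.92% over all genes. The UHRF1 window held 49 and 34 H3K4me1 summits. Summed over the 19 genes, windows contained 105 H3K27ac summits without choline and 77 with it, and 565 and 555 of H3K4me1.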

How the data were processed

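H3K27ac and H3K4me1 were measured by ChIP-seq in 4 of 12 samples. The authors deposited 1 summit list per library, and its layout is that of MACS2 summits, in which the score is −log10 of either a p-value or a q-value. Which of these applies, how peaks were called and whether input was used are not given in the sources used here. MACS2, Bowtie, Picard, deepTools and the build hg38 are listed, per the submitters' processing notes, with no versions. Lists began at scores of 5.01 for H3K27ac and 1.31 and 1.30 for H3K4me1.

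Positions were made 1-based, and chromosomes other than 1 to 22 and X were left out. Gene positions came from RefSeq (GRCh38.p14), strand and starts from its promoter table. Summits were counted within 1 kb of gene ends, absence was judged within 2 kb, and windows reached 50 kb. Intervals are exact Clopper-Pearson at 95%, and those of ratios come from the binomial share. Python 3.11.15, pandas 2.3.3 and scipy 1.17.1 were used, and the measures were tested on simulated data.

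Named genes were up to 8 gained, 8 lost and 8 kept H3K27ac ends by score, the 5 largest window rises and falls of each mark at least 200 kb apart, the fullest H3K27ac window of each run, TRIM28 and partner genes with a lost or gained end. Others were named after their values were seen. The members and lists were chosen with earlier results of these data known. Protein sequences were not analysed here.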

Additional observations from a re-analysis of the deposited data

How the results depend on the processing

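Of 80 alternative values for 16 results, 50 stayed within 1.5 times the count or within the main interval, and 30 did not. Lost H3K27ac ends outnumbered gained ones under all 6 alternatives for ends. Over all genes they did so too in the main setting, with 2482 lost and 340 gained. The share lost was lowest, 53.5%, with absence required within 10 kb (34.3% over all genes) and highest, 68.6%, with a score minimum of 10 (54.9%), and with lists of equal length it was 57.5% (40.7%). H3K4me1 ends lost and gained numbered 9 and 7 within 500 bp, 32 and 27 within 2 kb, and 9 and 6 with absence required within 10 kb. The share lost was then 7.69%, against 1.77% over all genes, and 29.2% against 17.1% with a score minimum of 3. H3K27ac windows lower at 15 µM numbered 5 at 20 kb, 29 at 100 kb, 7 with a score minimum of 10 and 3 with 1 gene per 200 kb, and higher ones 0, 5, 0 and 0. For H3K4me1, lower windows numbered 6, 43, 3 and 9 in the same order, with its own minimum of 3, and higher ones 8, 16, 5 and 2, so higher windows outnumbered lower ones at 20 kb and with the score minimum. With gaps of up to 1 Mb the H3K27ac ratio in the runs was 0.693, above the 0.684 outside, and with the score minimum that of H3K4me1 was 0.869, above the 0.837 outside, so that in both the order of runs and rest turned. Chosen after seeing the data, other distances gave H3K4me1 at 16.7% of starts and 4.17% of far ends within 500 bp, and at 61.1% and 15.3% within 2 kb. A score minimum gave 28.2%, 3.70% and 15.0 summits per Mb of bodies, against 79.3 per Mb in the other genes. The far-end and body values stayed below those of the other chromosome 19 genes under each. No paired analysis was possible because each group holds 1 library. Read depth is unknown, so an absent summit is one not listed at the depth of that library.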

Other observations

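Summits that both lists of a mark held were counted in the runs of zinc finger genes. Of the 55 H3K27ac summits in the runs at 15 µM, 38 had a 0 µM summit within 500 bp (69.1%, exact 95% interval 55.2 to 80.9), against 52.8% (48.9 to 56.7) in the rest of chromosome 19. Of the 113 at 0 µM, 38 had a 15 µM summit (33.6%, 25.0 to 43.1), against 37.2% (34.1 to 40.4). For H3K4me1, 36.2% of the 0 µM summits in the runs (32.9 to 39.5) had a 15 µM summit, against 46.3% (45.0 to 47.6) in the rest. The median H3K27ac score in the runs was 13.2 at 0 µM, against 11.6 in the rest of the chromosome in the same list, and the median H3K4me1 score was 2.87 against 3.48. Of the zinc finger genes, ZNF114 had the highest H3K4me1 end score at 0 µM, 12.6, and ZNF17 at 15 µM, 12.8. No difference in this paragraph was tested.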
